A study of Mus musculus with 32 samples.

Results

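The effect of losing OMA1 in hearts with wild-type CHCHD10 (C10) was read from 16 of the 32 hearts of the study, chosen by their titles alone. They were all 8 C10WT OMA1-/- hearts and all 8 C10WT OMA1+/- hearts, with 4 of each genotype at 14 weeks of age and 4 of each at 20 weeks. The other 16 hearts carried a mutation of C10 (G58R at 14 weeks, S59L at 20 weeks) and served only for a test of where WT hearts differed from mutant ones. Every animal of the comparison carried at least 1 disrupted Oma1 allele, because the control hearts were heterozygous, and none had 2 intact alleles. The knockout was of the whole animal, from a line described earlier, and the animals were untreated and on normal chow. Of the OMA1-/- mice 5 were male and 3 female, and of the OMA1+/- mice 4 were male and 4 female. Whole-heart RNA was hybridised to Affymetrix Clariom S Mouse arrays, which give a single log2 signal per gene, with 1 heart per array and no technical replicates. The arrays correlated with each other at 0.954 to 0.989, and none was a copy of another.

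OMA1 is a metalloprotease of the mitochondrial inner membrane that is nearly silent in healthy mitochondria and becomes active under stress. It then cuts the long forms of OPA1, which ends fusion of the inner membrane, and it releases DELE1, which activates the kinase HRI and through it the integrated stress response (ISR), the program run by the transcription factor ATF4. The comparison asks what the loss of this protease does to gene expression in a heart that has no mutant C10 to activate it.

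No gene passed the test. Among 19505 genes, 0 (0%) differed between the 8 OMA1-/- hearts and the 8 OMA1+/- hearts at an adjusted p below 0.05 (limma with cohort as a block, Benjamini-Hochberg). At an unadjusted p below 0.05 there were 1480 genes (7.59%), of which 745 had the higher mean in OMA1-/- hearts and 735 the lower. Whatever their p, 9613 of all genes had the higher mean and 9892 the lower. Counts within gene lists below are to be read beside these shares. The lowest adjusted p of any gene was 0.502. For 18601 genes (95.4%) the whole 95% confidence interval of the difference lay between -1 and 1 on the log2 scale. This count includes genes below background, where a narrow interval bounds little. Among genes above background it was 9162 (92.7%). The median half-width of that interval among the 9886 genes above background was 0.38. Background here is a log2 signal of 6.59, below which 95% of 1410 olfactory and vomeronasal receptor genes lay. Without OMA1+/- heart 4 of the 14-week cohort the count was 1, Adcy6, with a difference of 1.09.

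Oma1 itself had the lowest p of all genes. At 14 weeks its log2 signal was 9.48, 9.46, 9.45 and 9.20 in OMA1-/- hearts, against 10.62, 10.69, 10.12 and 9.73 in OMA1+/- hearts. In the 20-week cohort Oma1 was 8.97, 9.08, 9.58 and 8.67 in OMA1-/- hearts, against 9.75, 9.60, 10.03 and 9.65 in OMA1+/- hearts. Each of the 8 OMA1-/- hearts thus lay below each of the 8 OMA1+/- hearts, as the labels require. The mean was 9.24 ± 0.31 in OMA1-/- hearts and 10.02 ± 0.43 in OMA1+/- hearts (SD, n = 8 each), a log2 difference of -0.79 ± 0.16 (SE) (adjusted p = 0.502 in limma). In an exact permutation test of the labels within cohorts, two-sided, 2 of 4900 arrangements gave a difference as large, p = 0.000408, which is the smallest p that these arrangements can give. The signal in OMA1-/- hearts was 57.95% of that in OMA1+/- hearts (95% confidence interval 45.8% to 73.3%) and stayed above background in all 8. Which part of the gene the deletion removes and where the probes lie were not given in the sources used here, so the signal left in OMA1-/- hearts is not a measure of intact transcript.

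Only 6 of 19505 genes (0.0308%) separated the 8 OMA1-/- hearts from the 8 OMA1+/- hearts without overlap, and 4 of them were above background. Beside Oma1, Klhl6, which encodes a BTB-kelch adaptor of ubiquitin ligases known from B cells, ran from 9.43 to 9.81 (median 9.76) in OMA1-/- hearts and from 9.86 to 10.60 (median 10.26) in OMA1+/- hearts. Its log2 difference was -0.56 ± 0.13 (adjusted p = 0.502 in limma). Ptov1 ran from 12.36 to 12.95 in OMA1-/- hearts and from 11.40 to 12.29 in OMA1+/- hearts, with a difference of 0.57 ± 0.15. Ubr2, a ubiquitin ligase that recognises destabilising N-terminal residues, ran from 11.53 to 11.97 in OMA1-/- hearts and from 10.47 to 11.46 in OMA1+/- hearts, with a difference of 0.51 ± 0.14. The other 2 genes, Car15 and Plac8l1, lay below background in all 16 hearts, so no fold is given for them. Separation within 1 cohort, with 4 hearts against 4, arises far more easily, and its share over all genes was not computed.

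**Figure D1:**
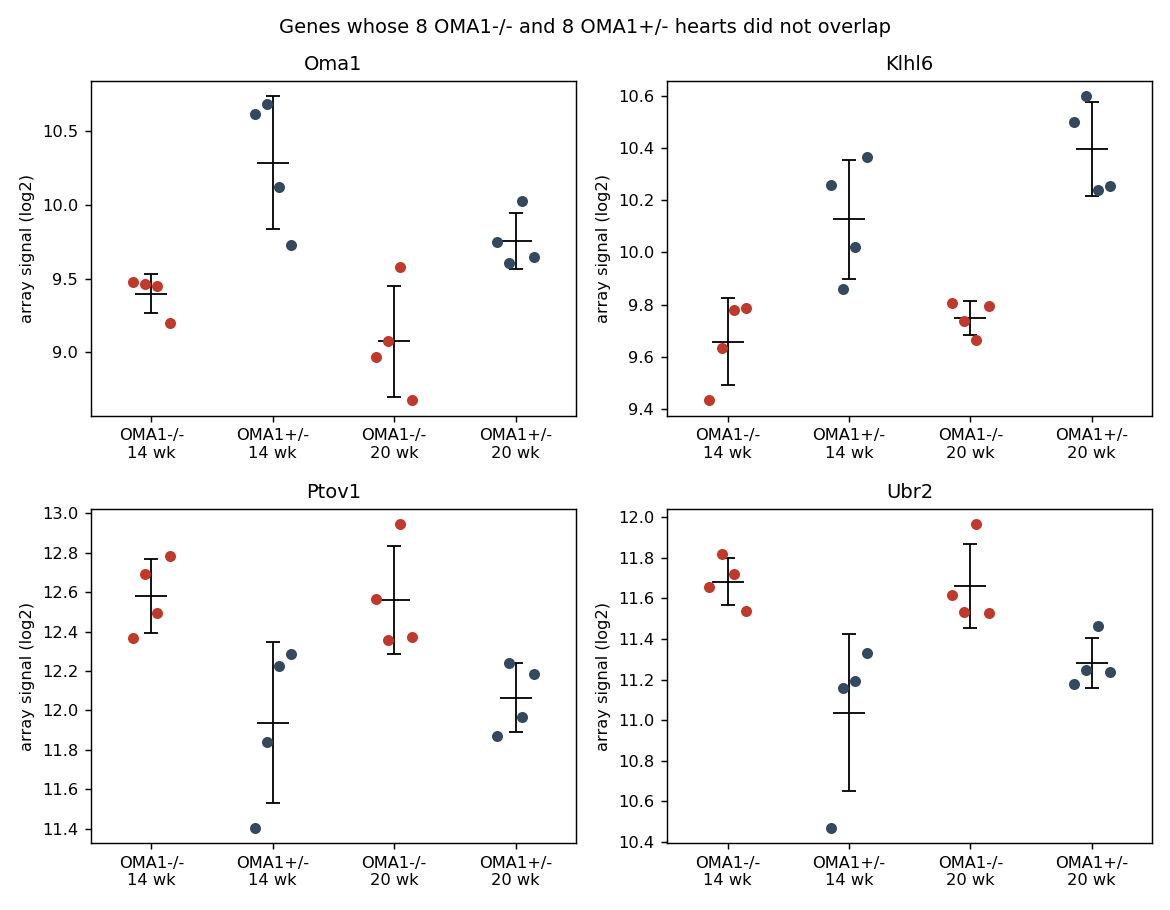
Array signal (log2, y axis) of Oma1, Klhl6, Ptov1 and Ubr2 in each WT heart (points), by OMA1 genotype and cohort, with the mean and SD of the 4 hearts of a group as horizontal bar and whiskers. Oma1 and Klhl6 have every OMA1-/- heart below every OMA1+/- heart, and Ptov1 and Ubr2 the reverse.

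The genes of smallest p in each direction, 10 a side, are given as values, since none passed. On the higher side in OMA1-/- hearts stood a metabolic regulator, Mlxip, which encodes the glucose-sensing transcription factor MondoA. Its signal was 9.77 to 9.99 (median 9.89) in OMA1-/- hearts and 8.38 to 9.87 (median 9.21) in OMA1+/- hearts, a log2 difference of 0.80 ± 0.18. The 8 OMA1-/- hearts lay close together and the OMA1+/- hearts spread far wider, with overlap. Adcy6, a main adenylyl cyclase of cardiomyocytes, ran from 12.52 to 13.30 (median 12.98) in OMA1-/- hearts and from 11.43 to 13.22 (median 12.12) in OMA1+/- hearts, a difference of 0.89 ± 0.21. A single OMA1+/- heart, number 4 at 14 weeks, carried the 13.22 and lay inside the OMA1-/- range, while the other 7 lay below all OMA1-/- hearts. The remaining members of this side were Ttll11 (0.86 ± 0.18, a tubulin polyglutamylase), Ccdc24 (0.90 ± 0.21), Trip10 (0.76 ± 0.17, a Cdc42-binding membrane adaptor), Akap8 (0.62 ± 0.14, a nuclear anchor of protein kinase A), Echdc2 (0.79 ± 0.19, a mitochondrial enoyl-CoA hydratase family member), Cpeb1 (0.76 ± 0.18, a regulator of poly(A) tails), Rere (0.53 ± 0.13, a transcriptional corepressor) and Wnk2 (0.72 ± 0.18, a kinase).

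On the lower side stood Oma1, Klhl6 and Pgd, the pentose phosphate enzyme 6-phosphogluconate dehydrogenase. Pgd ran from 9.01 to 9.55 (median 9.30) in OMA1-/- hearts and from 9.44 to 10.19 (median 9.81) in OMA1+/- hearts, a log2 difference of -0.56 ± 0.13. Nrg4, which encodes a growth factor secreted by adipose tissue, ran from 5.27 to 6.75 (median 6.05) in OMA1-/- hearts and from 6.16 to 8.91 (median 6.73) in OMA1+/- hearts, a difference of -1.23 ± 0.29. It was below background in 7 of 8 OMA1-/- hearts and in 2 of 8 OMA1+/- hearts, so this size is a fitted value only. Its 3 highest values, 8.91, 8.01 and 8.61, came from OMA1+/- hearts 1 to 3 at 14 weeks. The others were Uprt (-0.87 ± 0.20), Bank1 (-0.92 ± 0.22, a B cell scaffold protein), Prcp (-0.60 ± 0.15, a lysosomal carboxypeptidase), Gskip (-0.77 ± 0.19, a partner of GSK3), Zfp24 (-0.67 ± 0.17, a zinc finger transcription factor) and Glipr1 (-0.98 ± 0.25). The 20 genes were picked by p from these same hearts. Their agreement between cohorts, or in a part of the hearts, is thus no separate test. All 20 had the same direction in both cohorts. Without the 3 adipocyte-rich OMA1+/- hearts described next they all kept their direction, with Nrg4 at -0.58, Bank1 at -0.45, Glipr1 at -0.47, Adcy6 at 0.52, Oma1 at -0.58, Klhl6 at -0.66 and Pgd at -0.60.

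The hearts differed in more than genotype. All 11 cardiomyocyte markers were above background, and their mean signal lay between 17.02 and 17.34 in OMA1-/- hearts and between 16.69 and 17.26 in OMA1+/- hearts, so the tissue is heart as labelled. The sex labels matched the Y-linked Eif2s3y, Kdm5d and Uty in all 16 hearts. Adipocyte marker genes, of which 8 of 9 were found, were another matter. Their mean signal at 14 weeks was 7.78, 7.93, 8.26 and 8.78 in OMA1-/- hearts, against 10.83, 11.28, 11.22 and 8.37 in OMA1+/- hearts 1 to 4. At 20 weeks it lay between 7.65 and 7.86 in OMA1-/- hearts and between 7.71 and 7.88 in OMA1+/- hearts. The adipokine gene Adipoq had 13.85, 14.10 and 13.87 in OMA1+/- hearts 1 to 3 at 14 weeks, and 8.35 at most in the other 13 hearts. Adipoq was below background in 6 of 8 OMA1-/- hearts and 4 of 8 OMA1+/- hearts. Ucp1, the uncoupling protein of brown fat, had 8.42, 8.70 and 13.20 in those 3 hearts and 5.13 at most elsewhere. The first principal component of the 9886 genes, with 43.2% of the variance, placed the same 3 hearts between -64.0 and -60.3 and the other 13 between -14.2 and 33.5. In bulk samples of this kind, more cells of a type and more RNA per cell cannot be told apart.

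Atrial markers varied as widely, and not with the genotype in the same way in both cohorts. The mean of the 9 atrial markers at 14 weeks was 14.45, 10.82, 10.83 and 14.45 in OMA1-/- hearts, against 14.65, 13.05, 15.68 and 9.23 in OMA1+/- hearts. The 20-week mean was 11.86, 8.57, 8.54 and 13.17 in OMA1-/- hearts, against 9.91, 8.58, 8.05 and 7.88 in OMA1+/- hearts. Myl7, the atrial myosin light chain, had 14.90, 6.67, 6.95 and 17.27 in the 20-week OMA1-/- hearts, against 10.99, 6.66, 6.34 and 5.89 in the 20-week OMA1+/- hearts. Hearts 1 and 4 of the 20-week OMA1-/- group thus stood at an atrial level that no 20-week OMA1+/- heart reached. The median difference over the 9 genes was 0.36 in the pooled comparison, -0.51 at 14 weeks and 1.45 at 20 weeks, where the median of all genes was -0.004, 0.02 and -0.01. None of the 9 had an unadjusted p below 0.05 with all 16 hearts, and 8 of 9 did so without the 3 adipocyte-rich hearts, with a median of 1.82 and 6.14% of all genes below that p. Those 3 hearts had the highest atrial means among OMA1+/- hearts. Without them the 14-week OMA1+/- group keeps a single heart, at 9.23, the lowest atrial mean of that cohort. The larger median thus rests on which hearts were left out. Nppa, the gene of atrial natriuretic peptide, had a pooled difference of 1.13 ± 1.04, with -1.08 at 14 weeks and 3.34 at 20 weeks. Mesothelial markers, the genes of the heart's outer lining, had differences of the same signs, with a median over 7 genes of -0.96 at 14 weeks and 1.01 at 20 weeks.

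A further heart had high signals of liver and secretory genes, whose source was not tested. The mean of 7 liver and secretory genes was 10.51 in OMA1+/- heart 2 at 20 weeks, and lay between 5.41 and 5.89 in the 8 OMA1-/- hearts and between 5.58 and 5.80 in the other 7 OMA1+/- hearts. Albumin (Alb) was at 15.29 in that heart and at most 6.63 in the rest. The median difference of these genes was -0.77 with all hearts and 0.00 without that heart. The part of adipocyte, atrial, mesothelial and liver RNA in the remaining results was not tested, and for results that changed most without the 3 adipocyte-rich hearts (leaving 13 hearts, 8 OMA1-/- and 5 OMA1+/-) that value is given as well.

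**Figure D2:**
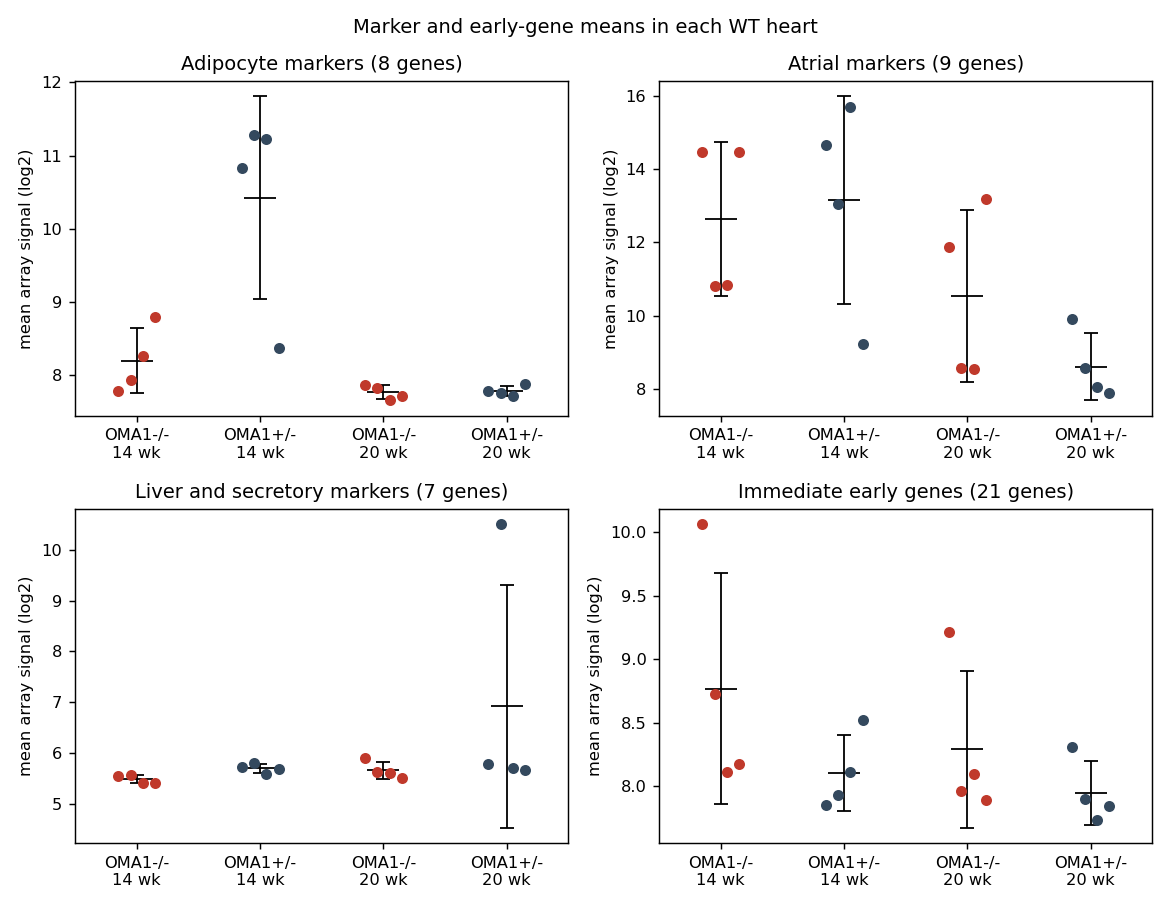
Mean array signal (log2, y axis) of adipocyte, atrial, and liver and secretory marker genes and of immediate early genes in each WT heart (points), with mean and SD of the 4 hearts of a group. Adipocyte markers stand at 10.83 to 11.28 in 3 OMA1+/- hearts at 14 weeks, and liver markers at 10.51 in 1 OMA1+/- heart at 20 weeks.

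Within cohorts, fitted as 4 group means over the 16 hearts, 13 genes (0.0666%) passed at 14 weeks, all lower in OMA1-/- hearts, and 1 gene (0.00513%) passed at 20 weeks. The 14-week genes included fat genes, among them Adipoq (-5.65 ± 1.03), Retn (-5.24 ± 0.93), Plin1 (-2.94 ± 0.52), the stearoyl-CoA desaturase gene Scd1 (-4.20 ± 0.73) and Car3 (-6.98 ± 1.14). They also included the B cell chemokine Cxcl13 (-4.38 ± 0.55), the immunoglobulin joining chain Jchain (-3.58 ± 0.53) and the B cell receptor component Cd79b (-1.44 ± 0.27). The rest were Gpc3, Hp, Lgals12, Ppp1r1a and Tmem47. Retn, Plin1, Jchain, Lgals12, Ppp1r1a and Cd79b were below background in all 8 OMA1-/- hearts, and Cd79b also in 7 of 8 OMA1+/- hearts, so their differences are fitted values only. Cxcl13 was 8.33, 6.77, 7.26 and 9.73 in the 14-week OMA1-/- hearts, against 12.90, 13.74, 12.32 and 10.62 in the 14-week OMA1+/- hearts. The groups did not overlap, and OMA1+/- heart 4, the one without high adipocyte markers, was nearest to the OMA1-/- hearts. The share of all genes without overlap at 14 weeks was not computed. A fit of the 8 hearts of the 14-week cohort alone called 0 genes. At 20 weeks Sult3a2, a sulfotransferase gene, was the 1 gene that passed (adjusted p = 0.0021, limma). Its signal was 4.78, 4.64, 4.32 and 4.48 in OMA1-/- hearts, against 6.55, 6.02, 6.20 and 6.18 in OMA1+/- hearts, all below background, so no fold is given.

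The difference between the cohorts' effects was tested directly, and 0 genes (0%) passed, with 1521 at an unadjusted p below 0.05 and a lowest adjusted p of 0.127 for Sult3a2 (limma). This count rested on a single heart. Without OMA1+/- heart 4 of the 14-week cohort, which leaves the 3 adipocyte-rich hearts as the whole 14-week OMA1+/- group, 436 genes passed. Without OMA1+/- heart 3 or OMA1-/- heart 4 of that cohort, 1 gene passed. Age, cohort and any batch of a cohort cannot be told apart.

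Genes tied to OMA1's own reactions were measured closely and showed no called difference. Of the 16, 3 had an unadjusted p below 0.05, against 7.59% of all genes. Of these, Yme1l1 and the knocked-out gene Oma1 itself were lower and Cpt1b higher. Opa1 ran from 12.82 to 14.07 (median 13.56) in OMA1-/- hearts and from 13.02 to 14.23 (median 13.65) in OMA1+/- hearts, a difference of -0.07 ± 0.18 with an interval from -0.45 to 0.30. Dele1 had a difference of 0.32 ± 0.22 (interval -0.14 to 0.78). Chchd10 had -0.03 ± 0.21 and its paralog Chchd2 0.10 ± 0.13. Yme1l1, the other protease that cuts OPA1, had -0.54 ± 0.21 (adjusted p = 0.618 in limma) with all hearts and -0.13 without the 3 adipocyte-rich hearts. Of 17 fusion and fission genes 1 had an unadjusted p below 0.05, with a median of -0.01. Of 8 MICOS genes, which shape the cristae, 0 had such a p, with 6 lower and a median of -0.24, which was -0.36 at 14 weeks and -0.03 without the 3 adipocyte-rich hearts.

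The ISR genes sat close to their OMA1+/- level. Of 17 transcription factors and regulators of the ISR, 9 had the higher mean in OMA1-/- hearts and 8 the lower, 2 had an unadjusted p below 0.05, and the median difference was 0.00. Atf4 was 12.87, 12.95, 12.39 and 12.56 in 14-week OMA1-/- hearts, against 12.22, 12.60, 12.70 and 12.36 in 14-week OMA1+/- hearts. At 20 weeks it was 12.43, 11.91, 12.59 and 12.46 in OMA1-/- hearts, against 12.42, 11.87, 11.95 and 11.92 in OMA1+/- hearts. The groups overlapped in both cohorts, and the pooled difference was 0.27 ± 0.15 with an interval from -0.04 to 0.57. Ddit3, which encodes CHOP, had 0.19 ± 0.23 and Atf5 -0.27 ± 0.15. Nupr1, a stress-induced cofactor, had -0.74 ± 0.34 with all hearts and 0.03 without the 3 adipocyte-rich hearts.

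Among the enzymes that ATF4 induces, 2 of 14 genes of serine, one-carbon, proline and asparagine synthesis had an unadjusted p below 0.05, both lower. The median of the 14 was -0.20, or 0.05 without the 3 adipocyte-rich hearts, where 0 had such a p. Asns, asparagine synthetase, was 8.20, 8.61, 9.01 and 8.49 in 14-week OMA1-/- hearts, against 9.98, 11.29, 9.22 and 8.49 in 14-week OMA1+/- hearts. The 20-week values were 8.34, 8.71, 8.74 and 8.08 in OMA1-/- hearts, against 9.28, 8.82, 9.02 and 9.10 in OMA1+/- hearts, without overlap in that cohort. How many of all genes did the same at 20 weeks was not computed. The pooled difference was -0.88 ± 0.28 (adjusted p = 0.545 in limma), and -0.40 without the 3 adipocyte-rich hearts. Mthfd2 had -0.23 ± 0.37 and is bounded less well than Opa1 or Atf4. Fgf21 was below background in all 16 hearts. The amino acid transporters (1 of 13 at that unadjusted p) and cytosolic tRNA synthetases (1 of 18) had medians of -0.06 and 0.05.

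**Figure D3:**
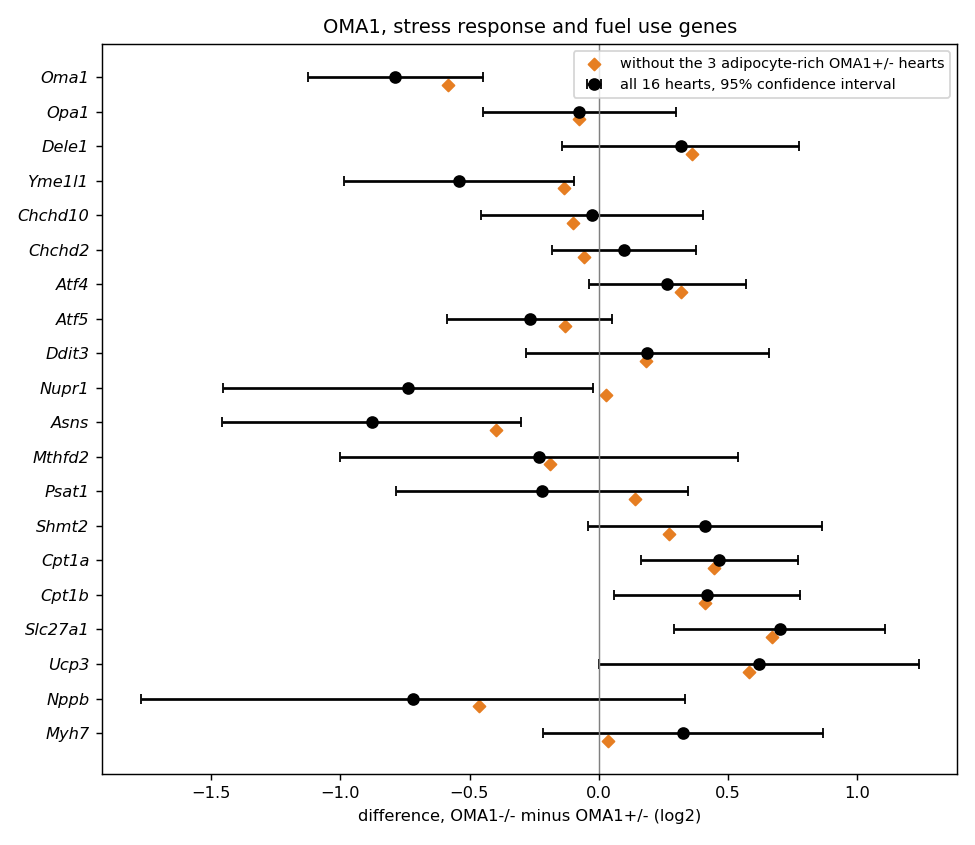
Log2 difference between OMA1-/- and OMA1+/- hearts (x axis) for 20 genes of OMA1's reactions, the ISR, fuel use and cardiac stress, with all 16 hearts (circles, 95% confidence interval) and without the 3 adipocyte-rich OMA1+/- hearts (diamonds). Oma1 lies at -0.79 and -0.58, and Opa1, Chchd10 and Atf4 between -0.10 and 0.32 on both readings.

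The respiratory chain genes had medians near 0. Of 36 subunits of complex I, 2 had an unadjusted p below 0.05 (Ndufv1 at 0.39 and Ndufs5 at 0.49), with a median difference of -0.04. No subunit of complexes II, III and V (30 genes, median -0.02) or IV (18 genes, median 0.01) had such a p. For 34, 28 and 18 of these genes the whole 95% confidence interval lay between -1 and 1. The 76 mitochondrial ribosomal proteins had a median of -0.13, or -0.05 without the 3 adipocyte-rich hearts. Of the 76, 55 were lower and 4 were at that unadjusted p, against 7.59% of all genes. The 15 mitochondrial chaperones and proteases had a median of 0.01, and the 12 regulators of mitochondrial biogenesis 0.20, or 0.01 without those hearts. Ppargc1a, the coactivator PGC-1α, had 0.25 ± 0.14.

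Genes of fatty acid uptake and oxidation showed no common direction. Of 24 genes 11 had the higher mean in OMA1-/- hearts and 13 the lower, with a median of -0.03. Of these 4 had an unadjusted p below 0.05, all higher, against 7.59% of all genes, and 3 did so without the 3 adipocyte-rich hearts. Slc27a1, which encodes FATP1, a transporter for fatty acid uptake into the cell, was 12.77, 13.25, 13.30 and 13.15 in 14-week OMA1-/- hearts, against 11.69, 12.88, 12.97 and 13.18 in 14-week OMA1+/- hearts. Its 20-week signal was 13.46, 13.62, 13.64 and 13.43 in OMA1-/- hearts, against 12.09, 12.85, 12.80 and 12.54 in OMA1+/- hearts. The 20-week groups did not overlap and the 14-week groups did, and the share of all genes without overlap at 20 weeks was not computed. Its pooled difference was 0.70 ± 0.20 (adjusted p = 0.545 in limma). The other 3 were Cpt1a (0.47 ± 0.15) and Cpt1b (0.42 ± 0.17), carnitine palmitoyltransferases of the mitochondrial outer membrane, and Ucp3 (0.62 ± 0.30), an uncoupling protein. Without the 3 adipocyte-rich hearts these 4 differences were 0.67, 0.45, 0.41 and 0.58. The oxidation enzymes Acadl (0.18 ± 0.13) and Decr1 (-0.29 ± 0.23) had intervals that included 0.

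Genes of lipid synthesis and storage depended far more on those hearts. Of 19 genes 11 had an unadjusted p below 0.05, with 9 lower and 2 higher, against 7.59% of all genes. Their median was -0.44. The median was -1.09 at 14 weeks, 0.10 at 20 weeks and 0.05 without the 3 adipocyte-rich hearts. Acaca, acetyl-CoA carboxylase 1, had -1.36 ± 0.40 with all hearts and -0.38 without them, and Acly, ATP citrate lyase, -0.80 ± 0.25 and -0.25. The macrophage markers behaved likewise: all 10 had a lower mean in OMA1-/- hearts, as did 9892 of all 19505 genes. Of the 10, 5 had an unadjusted p below 0.05, and the median was -0.56, or -0.04 without those 3 hearts.

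Immediate early genes, which are switched on within minutes of a stimulus, had the largest median among the pathway lists apart from the sex-linked genes. Of 21 genes 18 had the higher mean in OMA1-/- hearts, against 9613 of all 19505 genes. An unadjusted p below 0.05 was found for 6 of them, against 7.59% of all genes. The median difference was 0.61, against -0.004 for all genes. Egr1 was 15.29, 12.37, 10.41 and 9.41 in 14-week OMA1-/- hearts, against 9.32, 8.35, 9.63 and 12.03 in 14-week OMA1+/- hearts. At 20 weeks it was 13.41, 10.66, 9.72 and 9.41 in OMA1-/- hearts, against 12.15, 9.61, 9.15 and 9.41 in OMA1+/- hearts. OMA1-/- heart 1 of each cohort carried the highest values, and the rest overlapped the OMA1+/- hearts. The mean over the 21 genes was 10.07 in OMA1-/- heart 1 at 14 weeks and 9.21 in OMA1-/- heart 1 at 20 weeks. Without these 2 hearts the median difference was 0.15 and 2 of 21 genes had an unadjusted p below 0.05. Without the 3 adipocyte-rich OMA1+/- hearts the median was 0.32, again with 2 genes at such a p. The median was 0.22 with the adipocyte marker mean as a covariate, and -0.21 with the adipocyte and atrial means together, so its direction was not stable. The 6 genes were Junb (1.03 ± 0.34) and Atf3 (0.61 ± 0.29), both transcription factors of the AP-1 and ATF families, the stress gene Ier3 (0.63 ± 0.21), the antiproliferative gene Btg2 (0.94 ± 0.36), the MAP kinase phosphatase Dusp1 (0.82 ± 0.32) and the nuclear receptor Nr4a3 (0.89 ± 0.38).

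Early genes of this kind are classic targets of CREB, the factor that answers cyclic AMP through the element TGACGTCA, and 2 of the 6 hold that element, in full, before their start. They are shown as the sites in the genes just named. The element (its own reverse complement) is in capitals, each sequence runs along the gene's strand, and both come from RefSeq (GRCm38.p6), Btg2 at chr1:134079303-134079332 (minus strand) and Dusp1 at chr17:26508597-26508626 (minus strand).
Btg2: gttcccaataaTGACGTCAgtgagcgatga
Dusp1: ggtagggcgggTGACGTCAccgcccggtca
The element starts 166 bases before the start of Btg2 and 143 bases before that of Dusp1. Among 17 early genes with a promoter sequence (250 bases before to 50 after the start) 2 held it, and among 15691 genes on the array with such a sequence 2.63% did. A match describes the letters only. Btg2 was 12.64, 11.15, 9.40 and 10.16 in 14-week OMA1-/- hearts, against 9.20, 9.68, 10.01 and 10.58 in 14-week OMA1+/- hearts. Dusp1 was 16.66, 14.65, 14.43 and 14.49 in 14-week OMA1-/- hearts, against 13.73, 15.19, 13.75 and 14.80 in 14-week OMA1+/- hearts. In both genes heart 1 was the highest OMA1-/- heart and the groups overlapped.

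Clock, glucocorticoid and heat shock genes did not pass either, and their counts stand beside the 7.59% of all genes with an unadjusted p below 0.05. Of 17 circadian genes 11 had the higher mean in OMA1-/- hearts and 6 the lower, with a median of 0.21 in both cohorts, 0.16 at 14 weeks and -0.01 at 20 weeks. An unadjusted p below 0.05 was found for 4 of them, all higher, and for 2 without the 3 adipocyte-rich hearts. Among the 4 were Per3 at 0.80 ± 0.25 and Per2 at 0.70 ± 0.33, which stood at 0.45 and 0.50 without those hearts. Arntl, which encodes BMAL1, the activator that runs in antiphase to the Per genes, had -0.76 ± 0.39. Per3 ran from 11.55 to 12.66 (median 12.42) in OMA1-/- hearts and from 10.70 to 12.67 (median 11.28) in OMA1+/- hearts. The time of day at which the hearts were taken was not given in the sources used here. Of 11 glucocorticoid-induced genes 2 had such a p, Zbtb16 (0.86 ± 0.30) and Sgk1 (0.87 ± 0.36), and the median was 0.36. This median was 0.54 without the 3 adipocyte-rich hearts and 0.15 without the 2 hearts of highest early gene signal, where 1 gene had such a p. Of 12 cytosolic heat shock genes 2 had such a p, Hspa1b (0.66 ± 0.23) and Hspa1a (0.60 ± 0.23), against 7.59% of all genes, and 0 had one without the 3 adipocyte-rich hearts. Hspa1a and Hspa1b are near-identical copies, so their signals are not separate measurements.

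Genes of cardiac stress were bounded poorly. Of 14 cardiac stress and fetal genes, 8 had the higher mean in OMA1-/- hearts and 6 the lower, and 1 had an unadjusted p below 0.05. The differences ran from -0.72 to 1.72 with a median of 0.04, and 7 of the 14 confidence intervals lay between -1 and 1. Without the 3 adipocyte-rich hearts Nppa, with the atrial markers Myl4 and Myl7, stood at 3.05, 3.84 and 4.33. Those 3 hearts also had the highest atrial means among OMA1+/- hearts. Nppb, which encodes another natriuretic hormone, ran from 8.27 to 12.87 in OMA1-/- hearts and from 10.37 to 13.37 in OMA1+/- hearts, a difference of -0.72 ± 0.51. Myh7, the fetal myosin heavy chain, had 0.33 ± 0.26, with an interval from -0.21 to 0.87. Of 20 adult contractile, calcium and conduction genes 3 had an unadjusted p below 0.05, all higher, and 1 did so without the 3 adipocyte-rich hearts. The calcium channel gene Cacna1c had 0.69 ± 0.23 with all hearts and 0.33 without the 3. None of 15 collagen genes had such a p.

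**Figure D4:**
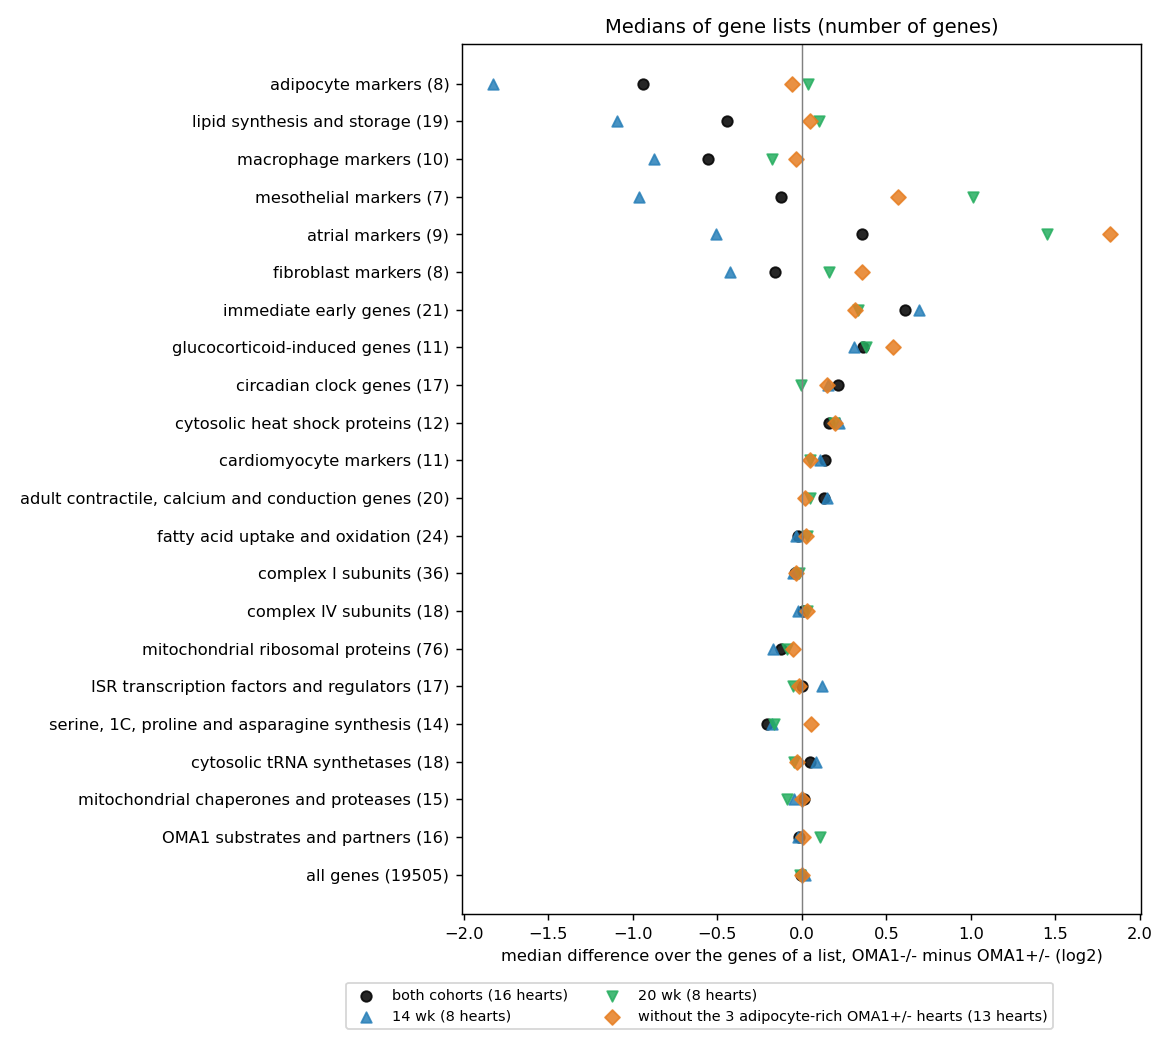
Median log2 difference between OMA1-/- and OMA1+/- hearts (x axis) over the genes of 21 lists and of all genes, for both cohorts, each cohort, and without the 3 adipocyte-rich OMA1+/- hearts. Adipocyte, lipid synthesis and macrophage lists lie below 0 with all hearts and near 0 without the 3, atrial and mesothelial lists differ in sign between cohorts, and the complex I, complex IV and ISR regulator lists lie between -0.05 and 0.12 in all 4 readings.

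Genes beside Oma1 were examined because a knockout allele brings its chromosomal neighbourhood with it. Of the 20 nearest measured genes on chromosome 4, 10 on each side, 0 had an unadjusted p below 0.05 and 0 separated the hearts without overlap. Most of the 20 lay below background in most or all WT hearts, where a difference could hardly show. Those expressed in heart included Prkaa2 (-0.07 ± 0.20), a catalytic subunit of AMP-activated kinase, Plpp3 (-0.02 ± 0.19), Usp24 (0.19 ± 0.18) and Mier1 (-0.08 ± 0.17). In windows of 50, 100 and 200 genes the shares with such a p were 10%, 7% and 6.5%, against 7.59% of all genes.

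Where WT hearts differed from mutant ones was tested on all 32 hearts, as the mean effect of OMA1 loss in both WT cohorts minus its mean effect in G58R and S59L hearts. The paper reports that most G58R OMA1-/- pups died as neonates, and that the few survivors were decompensated, with markedly enlarged hearts. The G58R OMA1-/- hearts came from such survivors, so OMA1 loss and decompensation cannot be told apart in them. In the test of WT against mutant effects, 57 genes (0.292%) passed, with 21 positive and 36 negative differences. The 57 were picked by the WT minus mutant difference. It averages the G58R and S59L effects, so a gene could pass through 1 mutation alone. Med10, for example, had an effect of 2.22 in G58R hearts and -0.15 in S59L hearts, and Etfbkmt -0.30 and 2.42. For 49 of the 57 the WT effect was closer to 0 than the mean mutant effect, and the share over all genes was not computed. For 42 of the 57 both mutant effects had 1 sign and the WT effect the other. Picking genes by the difference favours such opposite signs, and the share of all genes with them was not computed either. Only 31 of the 57 had a mean above background in WT hearts, and for the rest a WT effect near 0 says little. The lead gene was Dusp4, a MAP kinase phosphatase, with a fitted difference of -3.14 ± 0.36 (adjusted p = 1.91e-05, limma). It was below background in all 16 WT hearts and all 4 G58R OMA1+/- hearts, and ran from 9.76 to 11.92 in G58R OMA1-/- hearts and from 4.82 to 5.85 in G58R OMA1+/- hearts. In S59L hearts it ran from 6.55 to 8.45 in OMA1-/- hearts and from 6.27 to 7.49 in OMA1+/- hearts. Lcn2, the lipocalin secreted by injured tissue, had an effect of -0.64 in WT hearts, 4.69 in G58R hearts and 5.20 in S59L hearts, a difference of -5.59 ± 0.73. In WT hearts the Lcn2 effect was 0.33 without the adipocyte-rich hearts and 0.29 at 20 weeks, and some hearts of each WT group were below background. Klhl33 had 0.33 in WT hearts, -2.86 in G58R hearts and -1.14 in S59L hearts, a difference of 2.33 ± 0.31. It was below background in all 4 G58R OMA1-/- hearts and all 4 S59L OMA1-/- hearts. Ckmt1, mitochondrial creatine kinase of non-muscle tissues, and Vat1l were below background in all WT hearts and had differences of -2.39 ± 0.40 and -1.30 ± 0.22. The sizes for Dusp4, Klhl33, Ckmt1 and Vat1l are as fitted and neither measured changes nor bounds.

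Some of the 57 genes, among them Klhl6, Pgd and Adcy6, were also leading genes of the WT comparison, although no WT effect passed on its own. The WT effect from the same hearts is part of both tests, so this overlap is no separate test. Klhl6 had -0.56 in WT hearts against 0.37 in G58R hearts and 0.57 in S59L hearts, a difference of -1.03 ± 0.21 (adjusted p = 0.023, limma). Pgd had -0.56 in WT hearts, 0.70 in G58R hearts and 0.00 in S59L hearts, a difference of -0.91 ± 0.18. Adcy6 had 0.89 in WT hearts, -1.12 in G58R hearts and 0.33 in S59L hearts, a difference of 1.28 ± 0.28. Outside the leading genes, Kansl2, a subunit of a histone acetyltransferase complex, had 0.66 in WT hearts, -0.64 in G58R hearts and -0.72 in S59L hearts, a difference of 1.34 ± 0.23. Of the 32 hearts 7 had an adipocyte marker mean above a log2 signal of 9, of which 3 were WT and 4 mutant. Without these 7, which leaves a single 14-week WT OMA1+/- heart that is assumed to vary like the other groups, 82 genes passed, 22 of them among the 57, and none of the 57 changed direction. The count was 485 without WT OMA1+/- heart 4 at 14 weeks and 150 without S59L OMA1-/- heart 1. It was 37 without WT OMA1-/- heart 4 at 14 weeks or G58R OMA1-/- heart 2, 36 without G58R OMA1+/- heart 4 or S59L OMA1+/- heart 2, 34 without G58R OMA1+/- heart 3 and 35 without S59L OMA1+/- heart 4.

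**Figure D5:**
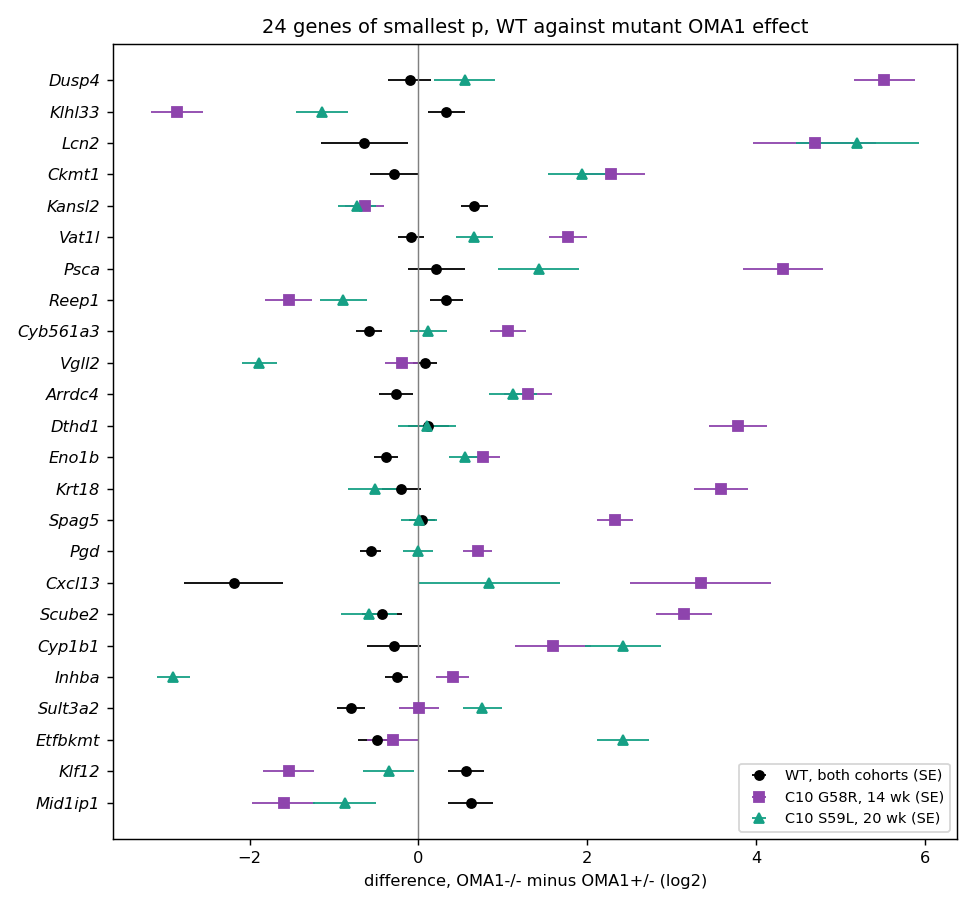
Log2 difference between OMA1-/- and OMA1+/- hearts (x axis, whiskers are SE of the 32-heart fit) in WT, G58R and S59L hearts for the 24 genes of smallest adjusted p in the test of WT against mutant effects. The WT effects of Dusp4, Lcn2, Ckmt1 and Vat1l lie between -0.64 and -0.09, while both mutant effects of these genes are above 0.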

How the data were processed

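Gene expression of 16 C10WT hearts was analysed, with the 16 mutant hearts for 1 test. The deposited values are log2 signals that the authors made by signal space transformation and robust multiple-array averaging (SST-RMA) in Transcriptome Analysis Console at default settings. No source used here states if all arrays were normalized together. Normalization to a common distribution can hide a global shift. Array medians lay between 6.61 and 6.72. Of 28846 probe sets, 6640 controls were set aside; 19572 of 22206 target probe sets carried 1 gene symbol, which left 19505 genes (for 55 genes with several probe sets, the one of highest mean). Arrays have no read depth, and their number limits the precision.

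limma 3.58.1 in R 4.3.3 (lmFit, eBayes) was fitted to the 16 arrays with OMA1 genotype and cohort, two-sided, with Benjamini-Hochberg adjustment over 19505 genes at 0.05. Differences between cohorts and between WT and mutant hearts were contrasts of group means. Each array is 1 animal per the methods. The fit was tested on simulated data with 200 changed genes. Named genes were those past the tests (10 largest a side), otherwise the 10 of smallest p a side, up to 4 per list, genes without overlap, the 5 of smallest p in each difference test, the 10 neighbours of Oma1 on each side and a fixed set; Gdf15, of that set, was not analysed here. The members, 49 gene lists and tests were chosen with earlier results of these data known. Alternatives were other normalization, eBayes options, array weights, filters, probe sets, covariates (sex, adipocyte markers; atrial markers and both together, added after seeing the data), cohorts, replicate number as a block and each array left out.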

Additional observations from a re-analysis of the deposited data

Results flagged for a closer look

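Single hearts stood far from the other 3 of their group in 17 of 188 comparisons of a gene or list within a group of 4, where chance gives about 1 in 20 for each; the genes and lists share hearts and are not independent. Among OMA1-/- hearts, Ccdc24 was 7.26 in heart 3 at 20 weeks (others 8.51 to 8.56), Oma1 was 9.20 in heart 4 at 14 weeks (others 9.45 to 9.48), Dele1 was 12.01 in heart 3 at 20 weeks (others 10.90 to 11.08), and the immediate early gene mean was 9.21 in heart 1 at 20 weeks (others 7.89 to 8.09). Among 14-week OMA1+/- hearts, heart 4 had an Adcy6 of 13.22 (others 11.43 to 11.61), an Adipoq of 7.12 (others 13.85 to 14.10) and an adipocyte marker mean of 8.37 (others 10.83 to 11.28). Heart 1 of that group had a Chchd10 of 15.01 (others 15.98 to 16.12), and heart 2 an Fgf21 of 5.49 (others 4.78 to 4.89, all below background). Among 20-week OMA1+/- hearts, heart 1 had Adcy6 at 11.94 (others 12.30 to 12.34), Dele1 at 10.07 (others 10.96 to 11.04), Atf4 at 12.42 (others 11.87 to 11.95), Egr1 at 12.15 (others 9.15 to 9.61) and Myl7 at 10.99 (others 5.89 to 6.66). Heart 4 of that group had Wnk2 at 8.10 (others 7.42 to 7.52), heart 3 a mesothelial mean of 4.98 (others 5.91 to 5.96) and heart 2 a liver and secretory mean of 10.51 (others 5.66 to 5.79).

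The effect of OMA1 loss in WT hearts differed from the mean of the G58R and S59L effects for 57 genes by the test of the difference itself (limma). The fitted WT minus mutant differences were -3.14 for Dusp4, -5.59 for Lcn2, 2.33 for Klhl33, -1.30 for Vat1l and -2.39 for Ckmt1.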

How the results depend on the processing

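The count of 0 genes for OMA1 loss was also found with quantile normalization, equal medians, trend and robust options, array weights, genes above background only, all target probe sets, sex or adipocyte markers as a covariate, both marker covariates, no cohort term, all 32 arrays, without the 3 adipocyte-rich hearts and within 14 weeks alone. It was 1 within 20 weeks alone and with the atrial covariate (Nrg4, fitted at -1.40, adjusted p = 0.021 in limma, below background in 7 of 8 OMA1-/- hearts), 13 and 1 for the 14- and 20-week contrasts of the 16-array fit, and 0 to 1 with 1 array left out. The replicate numbers do not pair the hearts (1 of 8 pairs correlated above 0.1, and 1 of 8 OMA1-/- hearts correlated best with its own number), and with the replicate block the count was 0. The difference between cohorts had 51 genes with array weights, 1 without the adipocyte-rich hearts and 0 to 436 with 1 array left out. The difference between WT and mutant hearts had 337 with array weights, 37 for genes above background, 89 with the adipocyte covariate, 36 with both covariates and 34 to 485 with 1 array left out.

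Of 717 values of 36 named genes under an alternative, 691 kept direction and side of the threshold, 2 passed it and 24 changed sign, all of genes with an unadjusted p above 0.05. With both covariates these were Opa1 0.15, Chchd10 0.15, Chchd2 -0.018, Mthfd2 0.29 and Myh7 -0.19. Chchd10 was 0.033 with quantile normalization, 0.0025 with sex and 0.021 with the atrial covariate. Chchd2 was -0.072 with the adipocyte covariate, -0.057 without the adipocyte-rich hearts and -0.036 at 20 weeks. At 14 weeks Mthfd2 was 0.074 and Nppa -1.08, and at 20 weeks Fgf21 was -0.032 and Myh7 -0.063, in the cohort alone and in the 16-array fit. With 1 array left out, Opa1 lay between -0.15 and 0.012, Chchd10 between -0.15 and 0.092, Mthfd2 between -0.47 and 0.020 and Fgf21 between -0.0020 and 0.12. The cause was not tested. Of 343 list medians, 25 moved by more than the SD between hearts.

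Precision is limited by 8 hearts per genotype, controls that are all heterozygous, uneven adipocyte, atrial and liver RNA, and a deletion whose place relative to the probes is not given here.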

Other observations

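Without the 3 adipocyte-rich OMA1+/- hearts, the genes of smallest p with the higher mean in OMA1-/- hearts were Fmod (1.95 ± 0.36, adjusted p = 0.301 in limma), which encodes the collagen-binding proteoglycan fibromodulin, and others that included Myl1 (2.21 ± 0.50), a myosin light chain. With all 16 hearts their differences were 0.24 and 0.31. The 3 hearts left out also had the highest atrial means among OMA1+/- hearts. Fmod was 7.41, 7.33, 8.55 and 8.42 in 14-week OMA1-/- hearts, against 10.92, 9.87, 11.01 and 6.29 in 14-week OMA1+/- hearts. At 20 weeks it was 8.36, 7.60, 5.96 and 7.88 in OMA1-/- hearts, against 4.85, 5.42, 4.95 and 6.31 in OMA1+/- hearts. Myl1 was 14.64, 12.58, 12.24 and 14.34 in 20-week OMA1-/- hearts, against 10.82, 10.76, 11.07 and 11.94 in 20-week OMA1+/- hearts, without overlap. How many of all genes separated at 20 weeks was not computed. At 14 weeks Myl1 was 14.83, 12.09, 12.97 and 15.16 in OMA1-/- hearts, against 17.37, 15.73, 16.91 and 11.78 in OMA1+/- hearts. In every group but the 20-week OMA1+/- hearts, the 2 hearts with the highest Myl1 were those with the highest atrial marker means.

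Upk3b, a gene of the mesothelium, was 9.82, 9.92, 7.56 and 10.91 in 20-week OMA1-/- hearts, against 7.07, 8.15, 4.00 and 7.06 in 20-week OMA1+/- hearts, and 9.98, 7.15, 8.64 and 10.27 in 14-week OMA1-/- hearts, against 13.56, 11.38, 13.17 and 10.18 in 14-week OMA1+/- hearts. The group with the higher mean thus differed between the cohorts. Bmp10, a growth factor of the right atrium, was at 16.34 and 14.96 in OMA1-/- hearts 1 and 4 at 14 weeks and at 12.88 and 15.02 in OMA1+/- hearts 1 and 3 of that cohort, and did not pass 6.94 in the other 12 WT hearts.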
